A study of Mus musculus with 6 samples.

Results

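The 8 genes described here act in the handling of vitamin D, calcium and phosphate by the kidney: *Cyp27b1*, *Cyp24a1*, *Vdr*, *Kl*, *Fgfr1*, *Pth1r*, *Casr* and *S100g*. They were chosen by gene symbol, and all 8 of them are among the 23276 gene symbols of the authors' deposited table. They account for 31 of its 54721 transcript entries, of which 12 carry a RefSeq identifier and 19 are transcripts assembled from the reads. RNA came from whole kidneys of 6 mice at post-natal day 22, kept on the B6 background. The 3 SKO mice have the genotype KspCre; *Pkd1* F/RC, that is, a floxed *Pkd1* allele recombined by a Cre expressed in renal tubules and a germline hypomorphic RC allele present in every cell. The 3 DKO mice carry in addition the floxed cluster miR17~92 F/F, so both groups share the *Pkd1* defect, and cells without Cre remain unrecombined in both. Kidneys without a *Pkd1* defect were not analysed here.

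The table gives 1 mean abundance per transcript over the libraries compared and no value for a single kidney. Each value below is therefore the authors' mean over SKO and DKO kidneys together, with no replicate error, and its unit is CPM, the count of a transcript scaled to the size of its library. The table's other columns hold the authors' own comparison of DKO with SKO, which was not used here, so nothing below says whether a gene differed between the groups. Total counts per library are not in the table, the depth is unknown and no counting interval could be set. The host transcript of the cluster, *Mir17hg*, had a mean of 4.21 CPM, and a mean over both groups cannot check the labels. Markers of 7 kidney cell classes fixed for the check (proximal tubule, thick ascending limb, distal convoluted tubule, collecting duct, podocyte, endothelium and leukocyte) were all above 1 CPM, whereas the 3 markers of the parathyroid gland, *Pth* among them, were at most 0.0788 CPM and the 3 of bone at most 0.276 CPM. The markers of liver ranged from 1.40 to 18.2 CPM, and of the 3 on the intestine list *Vil1*, also made by the proximal tubule, was at 36.4 CPM, *Fabp2* at 0.0351 and *Cdx2* at 0.0263. In RNA of a whole organ, fewer cells of a type and less RNA per cell cannot be told apart.

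Vitamin D becomes active when *Cyp27b1*, the mitochondrial 1-alpha-hydroxylase of the proximal tubule, adds a hydroxyl group to the circulating precursor, and *Cyp24a1* starts its breakdown. The active hormone binds *Vdr*, a nuclear receptor that pairs with retinoid X receptors and regulates genes of calcium transport, among them those of the calcium-binding protein calbindin-D9k (*S100g*) and of *Cyp24a1* itself. *Kl* encodes alpha-Klotho, which joins FGF receptors such as *Fgfr1* to form the receptor for Fgf23, a phosphate-lowering hormone from bone that represses *Cyp27b1*. *Pth1r*, the receptor of parathyroid hormone, raises *Cyp27b1* and lowers phosphate reabsorption, and *Casr*, the calcium-sensing receptor, restrains calcium reabsorption in the thick ascending limb.

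The cluster that separates the genotypes encodes miRNAs that recognise transcripts by their seed, bases 2 to 8. Mature sequences of its 6 main products, from RefSeq on GRCm38.p6 (chr14:115043684-115044496, forward strand), are shown with the seed in capitals, because the cluster is the locus that differs by genotype and seed matches can be sought in the transcripts of this set.
miR-17-5p: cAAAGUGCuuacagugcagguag
miR-20a-5p: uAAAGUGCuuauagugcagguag
miR-18a-5p: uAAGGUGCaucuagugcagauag
miR-19a-3p: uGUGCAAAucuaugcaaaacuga
miR-19b-3p: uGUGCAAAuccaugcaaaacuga
miR-92a-3p: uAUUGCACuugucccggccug
These are 4 seeds, since miR-17-5p and miR-20a-5p share one and both miR-19 products share another.

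In GENCODE transcripts on GRCm38, the same assembly as mm10, the 3′-UTRs of 2 of the 8 genes held a match to all 7 seed bases on the transcript strand. *Cyp24a1* held GCACTTT, the match to miR-17-5p and miR-20a-5p, at positions 1545 to 1551 of a 3′-UTR of 1644 nucleotides, and *Kl* held TTTGCAC, the match to the miR-19 products, at positions 57 to 63 of 1963. Both sites are shown on the transcript strand with 8 bases on each side and the match in capitals.
*Cyp24a1*, chr2:170482793-170482815, reverse strand: atgatcaaGCACTTTtaaccgct
*Kl*, chr5:150991903-150991925, forward strand: gtcagccgTTTGCACctctctgt
Among 18914 genes with a RefSeq-matched 3′-UTR, 11.03% held GCACTTT, 10.03% held TTTGCAC, 7.20% held GCACCTT (miR-18a-5p) and 5.98% held GTGCAAT (miR-92a-3p), and 26.4% held at least 1 of the 4. The 2 of 8 genes with a match are thus close to that share. The 3′-UTRs of *Vdr* (2947 nucleotides), *Fgfr1* (860), *Cyp27b1* (825), *Casr* (771), *Pth1r* (169) and *S100g* (144) do not hold these letters, beside a median length of 786 over all genes. A match of letters is a description and was not tested as a site.

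The gene of the activating enzyme, *Cyp27b1*, spans 127048250 to 127053006 of chromosome 10 in GRCm38, on the forward strand, in 9 exons. It had 3 entries, at 10.7 and 10.3 CPM for the assembled transcripts and 10.4 CPM for RefSeq NM_010009. The 3 values differ by 1.04-fold from highest to lowest. *Cyp24a1*, the catabolic enzyme, lies on the reverse strand of chromosome 2 from 170482708 to 170497145, in 12 exons. Its single entry, NM_009996, had 8.82 CPM, the lowest level in the set. Its exons share 83 bases with those of *Pfdn4*, a gene on the opposite strand at 9.05 CPM. Libraries were stranded, but the strand setting used in counting is not given in the sources used here, so reads of that overlap may belong to either gene. Per kilobase of transcript, which is the scale on which different genes can be set side by side, *Cyp27b1* had 4.38 CPM and *Cyp24a1* 2.48 CPM, a ratio of 1.77. Without the division by length the RefSeq entries differ by only 1.18-fold in CPM. From these single entries, transcripts for both arms of vitamin D turnover were thus measured in these kidneys at neighbouring levels. The activating enzyme lay above the degrading one on both scales. Summed over its 3 entries, *Cyp27b1* had 31.5 CPM, a value whose meaning depends on how shared reads were counted. Whether that difference exceeds the spread between mice could not be tested.

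*Vdr*, the receptor, lies on the reverse strand of chromosome 15 from 97854425 to 97910630, in 10 exons. Its RefSeq entry NM_009504 had 65.3 CPM and the 3 assembled transcripts 64.7, 64.3 and 63.7 CPM. Per kilobase it had 14.9 CPM, 3.41 times the level of *Cyp27b1* and 6.03 times that of *Cyp24a1*. Of its partners, *Rxra* had 7.63 CPM per kilobase, so the receptor was 1.96 times as abundant, and *Rxrb* had 4.89. The third family member, *Rxrg*, had 0.0828.

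In the fixed list of 8 genes of vitamin D supply and partners, 6 had at least 1 CPM. The highest levels per kilobase were those of *Lrp2* at 36.7 CPM and *Gc* at 11.5 CPM. *Lrp2* encodes megalin, the endocytic receptor that takes up filtered vitamin D with its carrier, and *Gc* encodes that carrier, the vitamin D-binding protein. *Cubn*, the co-receptor cubilin, had 11.4 CPM per kilobase. The lowest were *Rxrg* and, at 0.254 CPM per kilobase, *Cyp2r1*, the microsomal enzyme of the preceding hydroxylation in liver. *Cyp27a1*, a mitochondrial sterol hydroxylase, had 2.34 CPM per kilobase, below *Cyp27b1*.

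*Kl* lies on the forward strand of chromosome 5 from 150952607 to 150993817, in 5 exons. NM_013823 had 225 CPM and the assembled transcript 215 CPM, the highest level of the 8 genes before length is considered. Its RefSeq transcript is long, 5118 nucleotides, and per kilobase *Kl* had 43.9 CPM, 2.94 times the level of *Vdr* and within 1.14-fold of that of *Pth1r*. It was close to *Slc12a3*, the sodium chloride cotransporter of the distal convoluted tubule, which had 43.0 CPM per kilobase. The other markers listed for that segment were far lower, *Pvalb* at 3.30 and *Trpm6* at 1.60 CPM per kilobase. *Klb*, the related beta-Klotho that serves other hormones of the FGF family, had 0.0476 CPM per kilobase, 923 times less, at a mean of only 0.169 CPM.

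*Fgfr1* lies on the forward strand of chromosome 8 from 25513654 to 25575718, in 18 exons of NM_001079908. It had the most entries, 9, all between 23.6 and 24.2 CPM. Entries NM_010206 and NM_001079908 shared 24.1 CPM and NM_001079909 had 23.7 CPM, so the table barely separates the isoforms. A non-coding gene annotated antisense to it, *Gm16159*, overlaps 125 of its exon bases. Per kilobase, *Fgfr1* had 5.96 CPM, and *Kl* was 7.37 times as abundant as this receptor. These values are for NM_001079908, of 4046 nucleotides. With NM_010206, which has the same CPM over 5025 nucleotides, *Fgfr1* had 4.80 CPM per kilobase and *Kl* was 9.15 times as abundant. *Fgfr2* was higher at 9.94 CPM per kilobase, *Fgfr3* was at 4.73 and *Fgfr4* at 2.48. With 1 entry per gene, *Fgfr1* from NM_001079908 made up 25.8% of the summed level of the 4 FGF receptors. With NM_010206 its share is lower. *Frs2*, the adaptor that links activated FGF receptors to signalling, had 4.06 CPM per kilobase. The ligand *Fgf23* was at 0.0424 CPM, beside a lowest value of 0.0263 CPM in this table. In this list of 6 partners 4 had at least 1 CPM, with *Fgfr2* and *Fgfr3* highest and *Klb* and *Fgf23* lowest per kilobase.

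*Pth1r* lies on the reverse strand of chromosome 9 from 110722085 to 110747145, in 16 exons. Its 6 entries lay between 108 and 110.1 CPM, and its 3 RefSeq isoforms NM_011199, NM_001083936 and NM_001083935 at 110.1, 108.3 and 108.3 CPM. Per kilobase it had 50.0 CPM, a little above *Slc5a2*, the glucose transporter of the early proximal tubule, at 47.5. The other proximal tubule markers listed were lower, *Lrp2* at 36.7 and *Slc22a6* at 20.5. The level of *Pth1r* was 8.68 times that of *Casr* from its RefSeq entry, and 4.92 times when the highest entry of *Casr* is taken over the same length. *Pth2r*, a related receptor, was at 0.0322 CPM, near the lowest value of the table, as was the hormone *Pth* itself at 0.0263 CPM. *Pthlh*, the related ligand made in many tissues, was at 0.132 CPM. The receptor was therefore measured without transcripts of its ligands at any comparable level. *Gnas*, the stimulatory G protein subunit through which *Pth1r* raises cyclic AMP, had 117 CPM per kilobase.

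*Casr* lies on the reverse strand of chromosome 16 from 36493696 to 36562141, in 7 exons. Its entries disagreed. The 3 assembled transcripts had 46.1, 45.3 and 45.0 CPM, whereas NM_013803 had 26.1 CPM, 1.76 times less than the highest. That range of 0.82 on the log2 scale was wider than those of 76.5% of the 10022 gene symbols with at least 2 entries. Per kilobase of its RefSeq transcript *Casr* had 5.76 CPM from the RefSeq entry and 10.2 CPM from the highest assembled entry. The length of the assembled transcript is unknown, so the 10.2 rests on the length of another transcript and may be too high or too low. The CPM of *Casr* thus depends on which transcript is taken, and its level per kilobase is known only for the RefSeq entry. The G protein subunits through which it signals, *Gna11* and *Gnaq*, had 9.96 and 8.10 CPM per kilobase. Of the 6 partners of parathyroid hormone and calcium sensing, 3 had at least 1 CPM, *Gnas* and *Gna11* being the highest and *Pth* and *Pth2r* the lowest per kilobase.

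*S100g*, which buffers calcium on its way through the epithelial cell, lies on the reverse strand of chromosome X from 162961992 to 162964599, in 3 exons. It is the shortest of the 8, with a RefSeq transcript of 480 nucleotides. NM_009789 had 162 CPM and the assembled transcript 56.6 CPM, a difference of 2.87-fold and the widest among the 8 genes. That range of 1.52 on the log2 scale was wider than those of 87.6% of the gene symbols with at least 2 entries. Per kilobase, the RefSeq entry of *S100g* had 338 CPM, 6.76 times the level of *Pth1r*, 7.70 times that of *Kl* and 137 times that of *Cyp24a1*. All ratios of *S100g* rest on this higher entry. The length of the lower, assembled transcript is unknown, so its level per kilobase was not computed. *Calb1*, calbindin-D28k, another calcium-binding protein of the distal nephron, had a similar CPM of 160 in its RefSeq entry but a transcript of 4222 nucleotides. Per kilobase *S100g* was 8.91 times as abundant. All 6 genes of the list of calcium transport and binding had at least 1 CPM. After *Calb1*, *Slc8a1*, the sodium-calcium exchanger, was highest at 26.5 CPM per kilobase. The lowest were *Atp2b4*, a plasma membrane calcium pump, at 2.28 and *Trpv6*, an apical calcium channel, at 2.24. *Trpv5*, the channel of the distal convoluted and connecting tubule, had 8.60 CPM per kilobase, and *Atp2b1* had 9.53.

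Phosphate transport is controlled by both the Klotho and the parathyroid hormone receptors, and all 4 genes of this list had at least 1 CPM. *Slc34a1*, the main sodium-phosphate cotransporter of the proximal tubule, had 423 CPM per kilobase, and its relative *Slc34a3* had 5.60. The lowest were *Slc20a2* at 4.97 and *Slc20a1* at 3.81 CPM per kilobase. Of the 8 genes, *S100g* came nearest to *Slc34a1* on this scale.

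**Figure D1:**
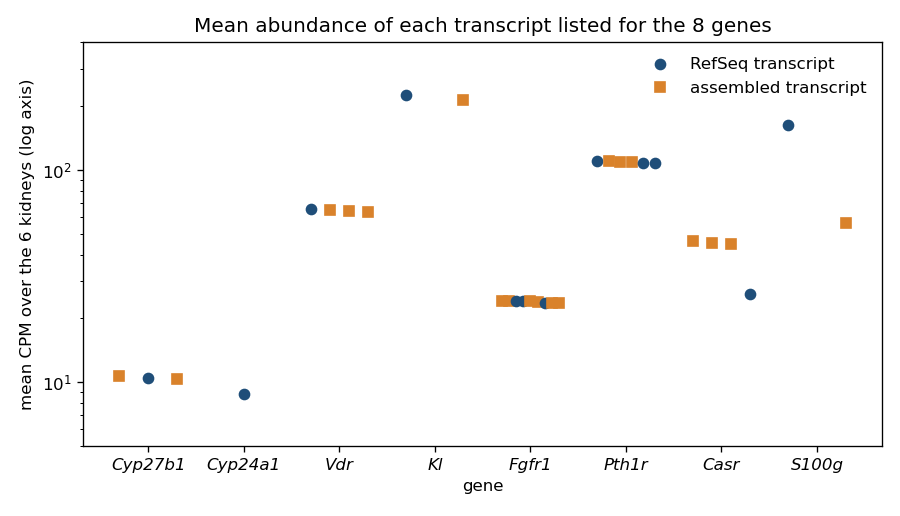
Mean CPM over the 6 kidneys (vertical log axis) of each of the 31 transcript entries, by gene; circles are RefSeq transcripts and squares are transcripts assembled from the reads. Entries of *Cyp27b1*, *Vdr*, *Kl*, *Fgfr1* and *Pth1r* nearly coincide, while those of *Casr* span 26.1 to 46.1 CPM and those of *S100g* 56.6 to 162 CPM.

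The plot of every entry shows that entries of one gene mostly had nearly the same level. In 5 of the 7 genes with at least 2 entries all values lay within 0.1 on the log2 scale, against 47.1% of all such gene symbols. Mean CPM summed over all entries of the table came to 1007270. Near-equal entries of a gene, such as the 9 of *Fgfr1* between 23.6 and 24.2 CPM with exact ties, largely hold the same reads. They are not separate measurements. Whether a shared read counted in full or in part for each entry is not given in the sources used here. Entries of a gene were therefore not summed for the levels given here. A total of this size follows from the scaling to CPM and does not show whether reads were entered more than once. If shared reads counted in part, the highest entry understates genes with many entries, such as *Fgfr1*, more than *Cyp24a1* with 1. The ratios, order and places in this report therefore hold for single entries.

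**Figure D2:**
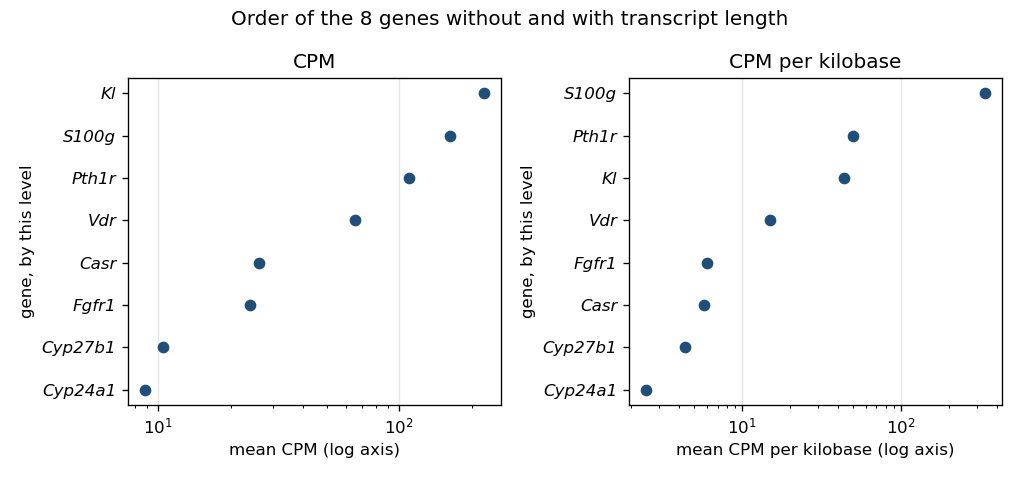
The 8 genes in order of their level in the highest RefSeq entry, as mean CPM on the left and as mean CPM per kilobase of transcript on the right (both horizontal axes are logarithmic). *Kl* is first at 225 CPM on the left, and *S100g* is first at 338 CPM per kilobase on the right.

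With length taken into account the order of the set was *S100g*, *Pth1r*, *Kl*, *Vdr*, *Fgfr1*, *Casr*, *Cyp27b1* and *Cyp24a1*. Without it, *Kl* came before *S100g* and *Pth1r*, and *Casr* before *Fgfr1*. *Casr* also came before *Fgfr1* when its highest assembled entry was taken over the RefSeq length, which is not its own. The same held when *Fgfr1* was represented by the longer of its tied RefSeq entries. The neighbours *Pth1r* and *Kl*, and *Fgfr1* and *Casr* from the RefSeq entries used, lay within 1.14-fold of each other per kilobase. With the highest entry of each gene over its RefSeq length, *Casr* came to 1.70 times *Fgfr1*. No order among the 8 can be tested, since the spread over mice is unknown.

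**Figure D3:**
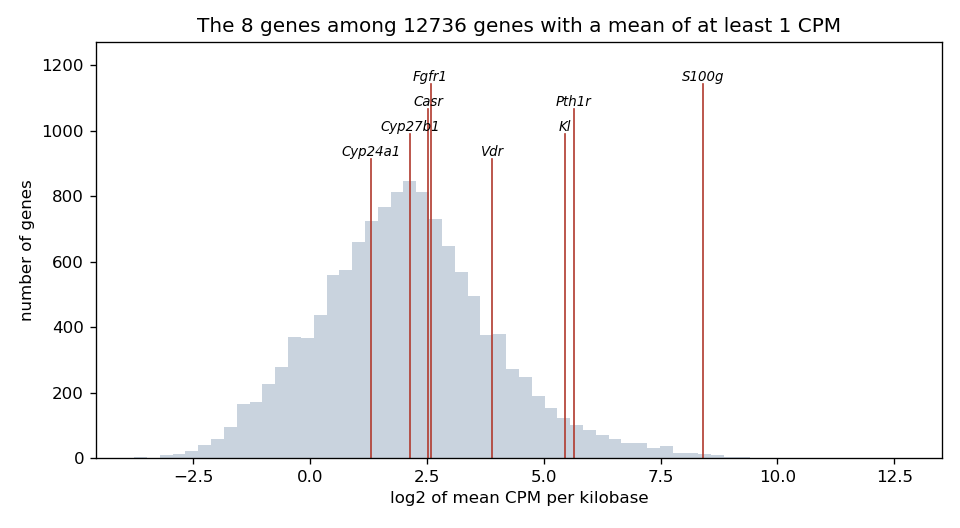
Number of genes (vertical axis) by log2 of mean CPM per kilobase (horizontal axis) for 12736 genes at or above 1 CPM, with a vertical line at each of the 8 genes. *Cyp24a1* lies below the median of 3.998 CPM per kilobase and *S100g* lies in the far upper tail.

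Among 12736 genes at or above 1 CPM and of known transcript length, *S100g* stood above 99.8%, *Pth1r* above 96.0%, *Kl* above 95.4% and *Vdr* above 85.0% in CPM per kilobase. *Fgfr1*, *Casr* and *Cyp27b1* stood above 63.5%, 62.5% and 53.0%. The place of *Casr* is that of its RefSeq entry, and its highest assembled entry over the RefSeq length stood above 78.0%. That of *Fgfr1* is for NM_001079908, and NM_010206 stood above 56.4%. *Cyp24a1* stood above 34.5% and was the 1 gene of the 8 below the median of 3.998 CPM per kilobase, and the median of the 8 was 10.5. The receptors *Pth1r* and *Vdr* and the co-receptor *Kl* were thus more abundant than the enzymes *Cyp27b1* and *Cyp24a1*. From the RefSeq entries, the receptors *Fgfr1* and *Casr* lay closer to *Cyp27b1*, at 5.96 (4.80 with NM_010206) and 5.76 CPM per kilobase against 4.38. With the highest entry of each gene over its RefSeq length, *Casr* came to 10.2 CPM per kilobase, 2.26 times *Cyp27b1*. Summed over entries, *Fgfr1* had 215 CPM and *Casr* 163 CPM against 31.5 CPM for *Cyp27b1*. The meaning of these sums depends on how shared reads were counted.

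**Figure D4:**
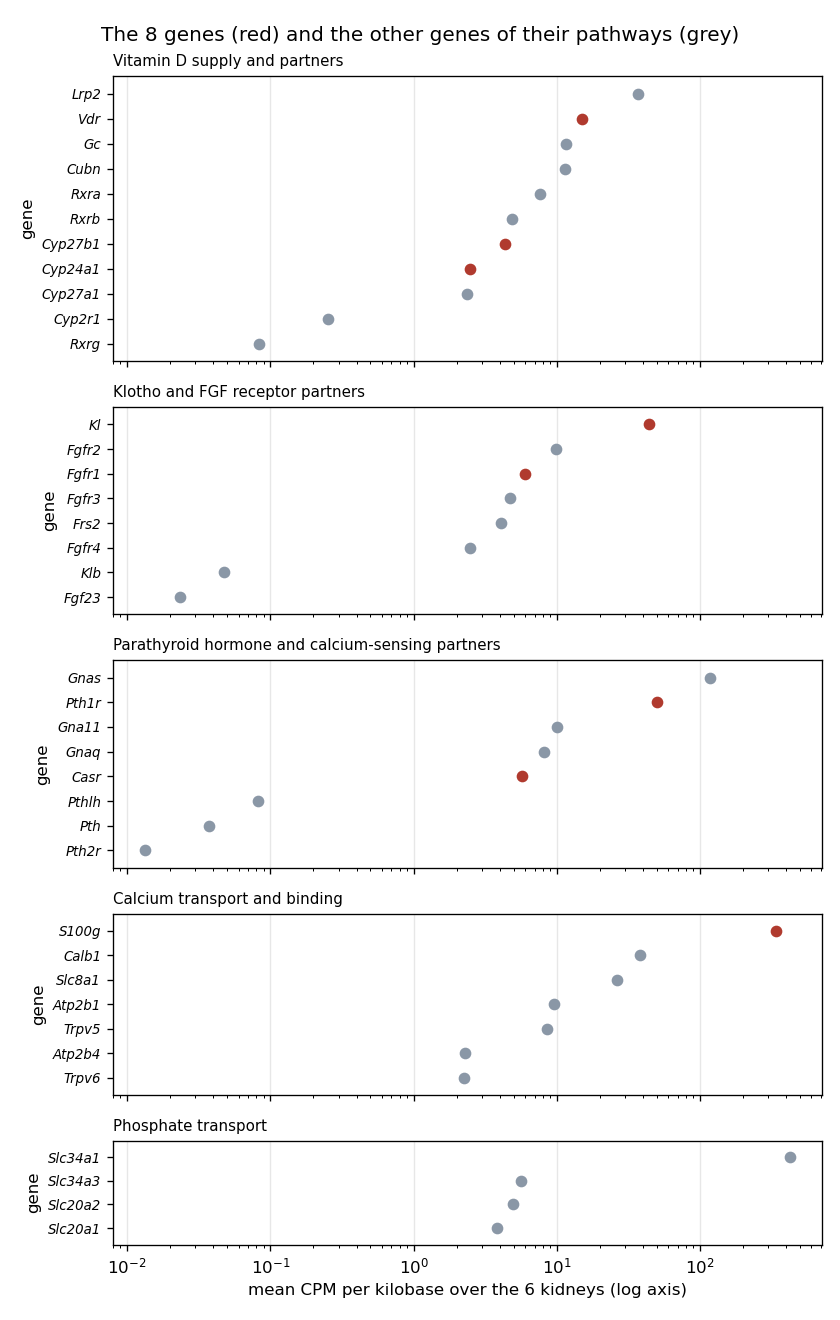
Mean CPM per kilobase over the 6 kidneys (horizontal log axis) of the 8 genes in red and of the other genes of their pathways in grey, in 5 lists. The hormones *Fgf23*, *Pth* and *Pthlh* all lie under 0.1 CPM per kilobase, and *S100g* and *Slc34a1* are at the upper end.

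Over the 5 lists, 23 of 30 further pathway genes had at least 1 CPM. The 7 under it were *Cyp2r1*, *Rxrg*, *Klb*, *Fgf23*, *Pth*, *Pthlh* and *Pth2r*. They include the 2 circulating hormones *Fgf23* and *Pth*, which bone and the parathyroid gland secrete.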

How the data were processed

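Strand-specific libraries of total kidney RNA were read single-end, trimmed and mapped to mm10 with TopHat by the authors, and poorly mapped alignments were removed. The submitters' processing notes also name bcl2fastq 1.8.4, TopHat2 2.0.12, Cufflinks, featureCounts, Subread 1.4.6 and edgeR 3.2.4. The deposited log2 values, 1 per transcript over the libraries compared, were computed by the authors with edgeR. Each is the log2 of an average CPM and was used as 2 to that power. Whether library sizes were rescaled is not given in the sources used here. A prior count keeps the value of unread transcripts above 0, so 4617 entries share the lowest value of 0.0263 CPM. The remaining columns hold the authors' comparison of DKO with SKO (a log2 fold change, a likelihood ratio statistic and p-values) and were not used. A test on counts had been planned for the case that the table held counts per sample, which it does not, so no groups were compared and no p-value was computed.

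A gene was represented by its entry with the highest mean CPM. For CPM per kilobase, the highest RefSeq entry was divided by the exon length of its GENCODE M21 transcript, which was found for 95.3% of 30561 RefSeq entries and for all 8 genes. Assembled transcripts have no length here, so *Casr*, whose highest entry is assembled, enters on this scale by its lower RefSeq entry, and of tied RefSeq entries of *Fgfr1* the shorter was used. Genes of at least 1 CPM (12736 of 22662 with a length) served as the reference. The rule for named genes took the 8 genes and, from each of 5 pathway lists, the 2 highest and the 2 lowest; other genes of the lists and the markers were named after their values were seen. The 8 genes and the lists were chosen with earlier results of these data known. Computation was in Python 3.11.15 (pandas 2.3.3, numpy 2.4.6, matplotlib 3.10.9), and the choice of entries, the percentiles and the seed search were tested on simulated data.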

Additional observations from a re-analysis of the deposited data

How the results depend on the processing

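All values rest on 1 mean per transcript, so neither mouse-to-mouse spread nor depth could limit or support them. The planned tests with DESeq2, with no filter on low counts, with 1 transcript per gene and with each replicate left out were not run, because each needs counts per sample. A level was taken as moved past 1.5-fold and a place past 5 percentage points. Levels as the mean over a gene's entries moved for none of the 8 genes. *S100g* came nearest to the limit, with a mean of 109 CPM against 162 CPM in its highest entry. Summing all entries gave 31.5 CPM for *Cyp27b1*, 258 for *Vdr*, 440 for *Kl*, 215 for *Fgfr1*, 654 for *Pth1r* and 163 for *Casr*, which all moved. It gave 219 for *S100g* and 8.82 for *Cyp24a1*, which did not. If shared reads counted in full, a sum rises by construction. If they counted in part, the sum is nearer to the level of the gene. Which holds is not known here, so order and ratios from single entries may not hold for whole genes. With RefSeq entries alone, *Casr* had 26.1 CPM and the other 7 genes did not move. Without division by length, *Kl* ranked 1, *S100g* 2, *Pth1r* 3, *Casr* 5 and *Fgfr1* 6. When the highest entry of any kind was divided by the RefSeq length, an alternative chosen after seeing the data, *Casr* ranked 5 and stood above 78.0% of genes, and *Fgfr1* ranked 6. With the longer of the tied RefSeq entries of *Fgfr1*, also chosen after seeing the data, it ranked 6 and stood above 56.4%, and *Casr* ranked 5. Taking the transcript with the highest CPM per kilobase moved no rank. Against all genes with a length, *Cyp27b1* stood above 73.5%, *Cyp24a1* above 63.0%, *Vdr* above 91.5%, *Fgfr1* above 79.5% and *Casr* above 78.9%. Against genes of at least 0.1 CPM, *Cyp27b1* stood above 61.5%, *Cyp24a1* above 46.2%, *Fgfr1* above 70.1% and *Casr* above 69.3%, so the place of the lower genes depends on which genes are counted as expressed.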
